A study of Homo sapiens with 4 samples.

Results

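The genes described here are 157 protein-coding genes of the human autosomes that are shorter than 150 kb and hold at least 8 peaks of the first of 2 MTA1 ChIP-seq peak lists. They were chosen by counting the midpoints of the list 1 peaks between the annotated ends of each gene. They make up 0.914% of the 17173 autosomal protein-coding genes under 150 kb in the RefSeq annotation of GRCh38, and a further 174 genes of 150 kb or more also reached 8 midpoints. Because 12 of the 157 overlap another of them, they lie at 151 separate loci. List 1 chose the genes, so its counts, positions, spacing and scores in them are given as a description, without a test. List 2 played no part in the choice and was read in the same genes.

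The study mapped MTA1 in HCT116, an established epithelial cell line from a colorectal carcinoma of the colon, with formaldehyde-crosslinked chromatin. There were 2 MTA1 immunoprecipitates and 2 input libraries made without antibody, and no treatment or change of genotype is named for any of the 4. Each list sets 1 immunoprecipitate against the control of the same number, and no label tells separate cultures from repeat libraries of 1 culture. List 1 held 32042 peaks and list 2 held 31079. The lists carry a score for each peak that was set by the authors' own peak calling, on a scale that is not stated, and the lowest score was 50 in both. They carry no read counts, so the depth is unknown. With 1 list for each replicate there is no spread between samples to test against, and the intervals below, exact at 95%, cover counting error only.

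MTA1 is a subunit of NuRD, a complex that joins a nucleosome-remodelling ATPase to histone deacetylases. It is recruited to chromatin by DNA-binding factors and by other subunits, acts at promoters and enhancers, and is best known as a repressor of transcription. MTA1 is often found at raised levels in carcinomas, including those of the colon.

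At 6 of these genes the 2 lists met at an annotated transcription start. Of the 157 genes, 126 were found in the RefSeq promoter table, with 212 windows that run from 250 bases before to 50 bases after a transcription start. A list 1 peak touched a window of 54 of them (42.9%, beside 19.4% of all genes in that table), and a list 2 peak touched a window of 8 (6.35%, beside 3.33%). In 6 genes a window was touched by both lists, beside 1.62% of all genes in the table. List 1 chose the genes, which favours a high share for list 1 and for both lists. The shares are per gene, and the whole table had 18025 windows in 13485 genes. The number of windows per gene was not matched and the list 2 share has no interval, so nothing is read from these contrasts. Windows touched by both lists numbered 7, since BEGAIN had 2 that overlap each other. For each gene 1 is shown 5′ to 3′ with each GGGCGG or CCGCCC in capitals, the core of the GC box on the strand shown and on its complement. Overlapping matches were each counted. The sequences are from RefSeq, build GRCh38.p14.
ACSF3 (chr16:89093602-89093901, plus strand): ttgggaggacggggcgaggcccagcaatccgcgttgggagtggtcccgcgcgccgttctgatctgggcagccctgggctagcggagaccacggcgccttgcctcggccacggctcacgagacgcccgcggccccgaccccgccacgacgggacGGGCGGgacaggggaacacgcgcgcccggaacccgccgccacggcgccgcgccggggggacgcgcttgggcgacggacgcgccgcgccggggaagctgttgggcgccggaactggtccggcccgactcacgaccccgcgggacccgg
PEMT (chr17:17591659-17591958, minus strand): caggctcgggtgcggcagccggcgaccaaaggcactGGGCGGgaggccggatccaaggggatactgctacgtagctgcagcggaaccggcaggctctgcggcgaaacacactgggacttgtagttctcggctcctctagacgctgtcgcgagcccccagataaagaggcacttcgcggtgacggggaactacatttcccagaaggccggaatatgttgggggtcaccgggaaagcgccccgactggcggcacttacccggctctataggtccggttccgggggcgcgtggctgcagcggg
SNED1 (chr2:240998368-240998667, plus strand): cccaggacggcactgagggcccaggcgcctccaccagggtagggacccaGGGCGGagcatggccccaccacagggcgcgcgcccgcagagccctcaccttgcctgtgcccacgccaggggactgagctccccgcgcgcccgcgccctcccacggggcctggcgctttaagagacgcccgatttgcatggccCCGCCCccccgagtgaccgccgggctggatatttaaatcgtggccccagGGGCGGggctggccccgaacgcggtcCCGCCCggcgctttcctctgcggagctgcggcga
BRD3 (chr9:134067977-134068276, minus strand): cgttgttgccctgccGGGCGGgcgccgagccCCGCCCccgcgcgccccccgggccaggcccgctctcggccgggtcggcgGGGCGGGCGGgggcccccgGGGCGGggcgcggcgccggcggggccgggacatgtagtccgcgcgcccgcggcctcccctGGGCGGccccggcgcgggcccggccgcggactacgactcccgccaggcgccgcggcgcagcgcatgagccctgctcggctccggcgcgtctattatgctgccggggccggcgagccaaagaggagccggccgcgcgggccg
BEGAIN (chr14:100568444-100568743, minus strand): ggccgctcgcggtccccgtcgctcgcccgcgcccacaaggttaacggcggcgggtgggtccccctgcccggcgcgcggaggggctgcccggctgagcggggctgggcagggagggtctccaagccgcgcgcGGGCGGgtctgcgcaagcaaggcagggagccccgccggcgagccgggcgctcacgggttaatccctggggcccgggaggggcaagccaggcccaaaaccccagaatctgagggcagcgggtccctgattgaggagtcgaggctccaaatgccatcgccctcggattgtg
CCDC57 (chr17:82212793-82213092, minus strand): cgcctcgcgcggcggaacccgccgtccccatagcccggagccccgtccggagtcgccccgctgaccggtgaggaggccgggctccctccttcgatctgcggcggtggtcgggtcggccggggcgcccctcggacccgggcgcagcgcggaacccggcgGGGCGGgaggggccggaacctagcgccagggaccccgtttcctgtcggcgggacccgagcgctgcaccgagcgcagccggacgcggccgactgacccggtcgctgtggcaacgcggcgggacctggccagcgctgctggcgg

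ACSF3, a mitochondrial acyl-CoA synthetase gene, had a promoter peak that stood high in both lists, with a score of 284.2 and rank 101 in list 1 and a score of 257.6 and rank 95 in list 2. The midpoints of that pair lie outside the annotated gene, so neither is among the 13 list 1 midpoints counted inside ACSF3, and its list 2 count is 0. PEMT, whose product methylates phosphatidylethanolamine to phosphatidylcholine, carried the strongest list 1 peak in any of the genes, with a score of 684.2 and rank 4. The list 2 peak over the same promoter scored 57.7, rank 18951. SNED1, which encodes an extracellular matrix protein, had 106.1 in list 1 and 70.0 in list 2. BRD3, a reader of acetylated histones, went the other way by rank, with 56.1 and rank 23434 in list 1 and 82.9 and rank 3700 in list 2. BEGAIN, which encodes a protein of the postsynaptic density and whose shared windows belong to a start inside the gene, had scores of 55.8 and 52.5 in lists 1 and 2. CCDC57, which encodes a coiled-coil protein of centrosomes, had 89.1 and 57.6. ACSF3 was the only one of the 6 to rank among the best 1000 of both lists.

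The promoter windows of these genes were also richer in G and C than those of genes under 150 kb at large. Their median GC content was 72.5% against 62.7% over the 18025 windows of the 13485 genes in the table, and the median number of CpG was 34.5 against 21. A GC box core, searched as GGGCGG and its complement, was found in 74.1% of the 212 windows and in 57.6% of all windows of the same length. Windows touched by a list 1 peak had a median GC content of 74.3% (n = 68), and those not touched had 70.5% (n = 144). Over all genes in the table the same medians were 66.7% and 61.7%. The part of base composition in the peak counts was not tested.

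The strongest promoter peaks of these genes were otherwise found in list 1 alone. ZFYVE28, which encodes a zinc finger protein of endosomes, had a score of 324.1. THAP4, which encodes a protein with a THAP zinc finger, had 307.2. TSC2, the tumour suppressor that restrains mTOR signalling, had 236.7. COL18A1, which encodes the collagen from which endostatin is cut, had 213.3 at a start inside the gene, GPSM1, a regulator of G protein signalling, 182.6, and CBFA2T3, a transcriptional corepressor of the ETO family, 151.0, also at a start inside the gene. No list 2 peak touched a promoter window of any of the 6.

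Precursors of microRNAs, the short RNAs that pair with messenger RNAs through their seed, lay inside some of the chosen genes. Of 18 hairpins there, 5 were touched by a list 1 peak, beside 10.0% of the 669 hairpins inside genes under the limit, and none by a list 2 peak. The genes were chosen for many list 1 peaks, which favours a high list 1 share. For list 2 no share over all hairpins is given, so nothing is read from either count. The list 1 peaks scored 70.9 at the hairpin of miR-326 in ARRB1 (chr11:75335092-75335186), 78.4 at that of miR-6763 in FBRSL1 (chr12:132581997-132582061) and 51.4 at that of miR-5189 in ZFPM1 (chr16:88468918-88469031). They scored 121.5 at that of miR-3186 in BAHCC1 (chr17:81451104-81451188) and 64.3 at that of miR-6793 in DNM2 (chr19:10828973-10829035). The DNM2 peak itself overlapped a list 2 peak of 58.9 that did not reach the hairpin. The 9 mature sequences, from RefSeq, are shown 5′ to 3′ with the seed, bases 2 to 8, in capitals. The 9 seeds all differ.
hsa-miR-326: cCUCUGGGcccuuccuccag
hsa-miR-6763-5p: cUGGGGAGuggcuggggag
hsa-miR-6763-3p: cUCCCCGGccucugcccccag
hsa-miR-5189-5p: uCUGGGCAcaggcggauggacagg
hsa-miR-5189-3p: uGCCAACCgucagagcccaga
hsa-miR-3186-3p: uCACGCGGagagauggcuuug
hsa-miR-3186-5p: cAGGCGUCugucuacguggcuu
hsa-miR-6793-5p: uGUGGGUUcuggguugggguga
hsa-miR-6793-3p: uCCCCAACcccugcccgcag

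The 157 genes are short only in the sense of the 150 kb limit. Their median length was 88.8 kb and ranged from 16.9 kb to 149.8 kb, whereas the median over all genes under the limit was 20.3 kb. List 1 midpoints ran from 8 to 25 per gene with a median of 9. Exactly 8 were counted in 53 genes, 9 in 30, 10 in 21, 11 in 17 and 12 or more in 36, of which 20 had at least 15. At the other extreme, 10099 genes under the limit (58.8%) had none. The plot of midpoint counts sets the list 1 and list 2 counts of every gene side by side.

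**Figure D1:**
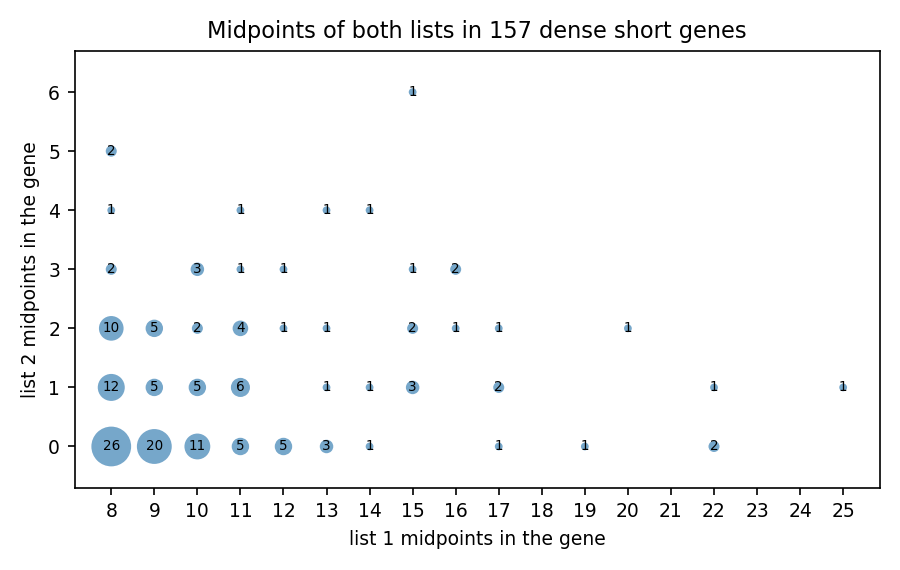
Midpoints of list 1 peaks (x axis, count per gene) and of list 2 peaks (y axis, count per gene) in each of the 157 genes, with the area of a circle and the number in it giving how many genes share a point. List 1 counts run from 8, the minimum of the rule, to 25, and list 2 counts run from 0 to 6, with 25 and 6 reached by different genes.

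The choice of limits left near neighbours on each side. The shortest genes with exactly 8 midpoints were PFKL, a phosphofructokinase (27.3 kb), GNA11, a G protein alpha subunit (29.6 kb), and INTS1, a subunit of the Integrator complex (34.1 kb). CPNE7, TRAF7 and CLUH, at 21.5, 22.3 and 22.6 kb, had 7 midpoints and were among the 55 genes left out by 1 peak. The longest genes kept were INPP4A, ZFYVE28 and RAB11FIP4, at 149.8, 149.0 and 146.5 kb, with 8, 12 and 9 midpoints. Just over the length limit were MPRIP (150.2 kb, 9 midpoints), LRP5 (150.9 kb, 10) and LHPP (152.3 kb, 17).

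Genes acting in transcription and chromatin held the gene with most peaks. There were 24 of them, and for this and the following groups the genes were sorted by hand after they were known. ZFPM1, which encodes FOG1, a partner of GATA factors known to bind NuRD, lies at chr16:88451769-88537031 and held 25 list 1 midpoints in 85.3 kb. Its list 1 peaks covered 49.7% of the gene, had a median spacing of 2.31 kb and scored from 51.4 to 237.1, with a median of 78.4. They began 4.86 kb from the 5′ end, and the strongest lay 77.8 kb from it, toward the 3′ end. A single list 2 midpoint was found in ZFPM1, in a peak that scored 62.8 and overlapped a list 1 peak of 67.7. Thus 24 of its 25 list 1 peaks had no list 2 peak over them.

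RXRA, the nuclear receptor that partners many others, had 22 list 1 midpoints in 114.1 kb and none of list 2. Its list 1 scores were lower than those of ZFPM1, with a median of 59.4 and a maximum of 150.7. CBFA2T3 had 17 midpoints of list 1 and 1 of list 2, and its median list 1 score of 95.1 was above the 68.7 of all list 1 peaks in the 157 genes. NFATC1, a calcium-regulated transcription factor of lymphocytes and heart valves, had 17 and 0. ZBTB46, a zinc finger factor of dendritic cells, was the reverse case within the group, with 8 list 1 and 4 list 2 midpoints. MYRF, a factor of myelin gene transcription, packed 11 list 1 midpoints into 35.9 kb and had 2 of list 2, 1 of which lay in a peak that overlapped list 1. BRF1, a subunit of the RNA polymerase III initiation factor TFIIIB, had 10 and 3. SMARCA4, the ATPase of BAF remodelling complexes, had 8 and 2, and DOT1L, a histone methyltransferase, had 8 and 1. In the whole group 16 of 24 genes (66.7%) had a list 2 midpoint. For this and the shares of the other groups below, the value over all genes in the length range of the chosen genes was 48.4%, and no group was tested against it. That value was not matched in length. The other genes in the range had a median length of 43.3 kb, and the groups had medians of 81.3 to 94.3 kb. Of all genes of 50 to 100 kb, 60.7% had a list 2 midpoint, and of those of 100 to 150 kb, 72.8%.

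Of the NuRD subunits themselves, 13 were autosomal, protein-coding and under 150 kb, and 1 was chosen (7.69%, beside 0.914% of all genes under the limit). That was CHD5, the remodelling ATPase expressed mainly in brain and testis, with 8 list 1 midpoints over 78.5 kb and 1 of list 2. The CHD5 list 1 peak at chr1:6105115-6106712 scored 56.4 and overlapped a list 2 peak of 50.8, both near the lowest score kept. MTA1 had 6 list 1 midpoints and 1 of list 2, GATAD2A had 7 and 0, and MBD3 had 3 and 0. None of 15 marker genes of colon epithelium was chosen, and none held more than 1 list 1 midpoint. With 0.914% of all genes chosen, a set of 15 leaves little room for a chosen gene. The NuRD and marker genes had median lengths of 38.1 and 17.7 kb, against 88.8 kb in the chosen genes. Nothing is read from either count.

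Receptors and signalling proteins formed the largest group, with 33 genes, of which 16 (48.5%) had a list 2 midpoint. ADGRB1, an adhesion G protein-coupled receptor of brain, had 22 list 1 midpoints covering 40.3% of its 95.4 kb, with scores up to 239.8, and no list 2 midpoint. MIB2, a ubiquitin ligase of Notch signalling at chr1:1613731-1630605, was the shortest gene and had the highest density, 53.3 midpoints per 100 kb. Its 9 list 1 peaks scored between 52.7 and 86.1 and covered 55.4% of the gene, without a list 2 midpoint. NOTCH1 itself had 8 and 0. TBC1D16, a GTPase-activating protein for Rab proteins, had 15 and 2, and its best list 1 peak, at chr17:79943640-79946245, scored 276.4, rank 110, with no list 2 peak over it. PDE6B, a phosphodiesterase subunit of rod photoreceptors, had 9 list 1 and 2 list 2 midpoints. A PDE6B peak of 72.4 in list 1 overlapped one of 103.5 in list 2, the highest list 2 score at any overlap counted inside these genes. In RALGDS, an exchange factor for Ral, the overlapping pair scored 59.2 and 77.1.

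Of the 11 ion channel genes, 4 belong to the voltage-gated calcium channels. They were chosen from 16 genes of the CACN family under the limit (25%, beside 0.914% of all genes under the limit). The family had a median length of 67.7 kb, against 20.3 kb in all those genes, and the share was not tested. CACNA1H, a T-type calcium channel, had 16 list 1 midpoints in 68.7 kb and 3 of list 2, and 2 of its list 1 peaks overlapped list 2. CACNA1G, CACNA1I and CACNA2D2 had 10 list 1 midpoints each and no list 2 midpoint. Of 70 genes of the KCN potassium channel family, which had a median length of 21.5 kb, 4 were chosen (5.71%, beside the same 0.914%). KCNT1, a sodium-activated potassium channel, had the most of these, 17 list 1 and 2 list 2 midpoints. TRPM2, a calcium-permeable channel opened by ADP-ribose, had 11 and 4. TTYH3, of the tweety family, had 10 list 1 midpoints in 32.8 kb and 1 of list 2. Among the channel genes 6 (54.5%) had a list 2 midpoint.

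Other symbol families were counted in the same way. Of 487 ZNF genes, with a median length of 23.2 kb, 1 was chosen (0.205%), and of 214 TMEM genes, with a median of 15 kb, none. The SLC transporters, with a median of 33.1 kb, gave 4 of 349 (1.15%), near the 0.914% of all genes under the limit, whose median was 20.3 kb. Of 25 integrin genes none was chosen. The part of gene length in these shares was not tested.

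Genes of matrix and adhesion numbered 12, and 5 (41.7%) had a list 2 midpoint. COL18A1 had 22 list 1 midpoints in 108.6 kb, with a median spacing of 2.66 kb, and 1 of list 2 whose peak scored 72.2 and overlapped none of list 1. COL6A2, a collagen of microfibrils, had 9 and 0. CDH15, the muscle cadherin, had 10 list 1 midpoints in 23.7 kb, the second highest density at 42.1 per 100 kb, and list 1 peaks covered 58.7% of it, the greatest share in any of the 157 genes. It had no list 2 midpoint. SNED1 had 12 and 3.

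The 18 genes of cytoskeleton, centrosome and cilia included CCDC57, the gene with most list 2 peaks. It had 15 list 1 and 6 list 2 midpoints. Its list 2 peaks scored 52.3, 83.8, 69.4, 121.1, 50.9 and 57.6 from the 3′ to the 5′ end, and only the last, over the promoter shown above, overlapped list 1. The midpoint of that list 1 peak is not among the 15 counted inside CCDC57. CCDC40, which is needed for ciliary motility, had 13 and 4, and CEP131, a centrosomal protein, had 11 list 1 midpoints in 33.4 kb and 1 of list 2. PCNT, the pericentriolar scaffold pericentrin, had 16 and 2. PLEC, which encodes the cytoskeletal linker plectin, had 14 and 1, and its overlapping pair scored 86.4 and 68.6. NINL, a centrosomal protein, held the best list 2 peak counted inside these genes, with a score of 136.8 and no list 1 peak over it. A list 2 midpoint was found in 10 of the 18 (55.6%).

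Metabolic and transporter genes numbered 20, of which 9 (45%) had a list 2 midpoint. GALNT9, a glycosyltransferase that starts O-linked glycans, had 20 list 1 and 2 list 2 midpoints in 133.2 kb. PEMT had 8 and 2, and the remaining 7 list 1 peaks of PEMT scored between 51.9 and 122.2, far below the 684.2 at its start. Another 39 genes were not placed in a group, and 20 of them (51.3%) had a list 2 midpoint. They include JPH3, a junctophilin of brain, with 19 and 0. They also include ZC3H3, a zinc finger protein of mRNA export, with 17 and 1 and a best list 1 score of 250.01, and EXD3, with 16 and 3. FANCA, a core protein of the Fanconi anaemia repair pathway, had 8 list 1 and 5 list 2 midpoints, and SPEG, a muscle kinase, had 9 and 0 with a best list 1 score of 238.5. DNM2, the dynamin that pinches off endocytic vesicles, had 8 and 5.

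**Figure D2:**
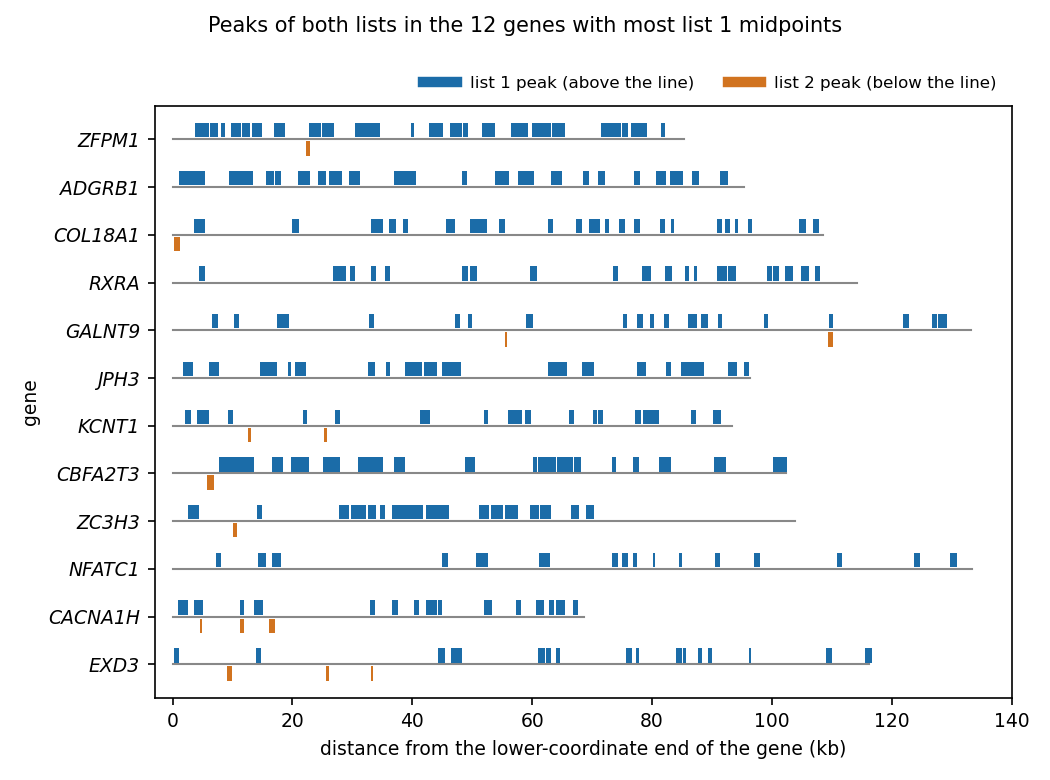
Positions of list 1 peaks (above each line) and list 2 peaks (below it) in the 12 genes with most list 1 midpoints (y axis), as distance in kb from the end of the gene with the lower coordinate (x axis). List 1 peaks line the bodies of all 12 genes, and 4 of the 12, ADGRB1, RXRA, JPH3 and NFATC1, show no list 2 peak.

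Within the genes, list 1 peaks were spread along the body. Between 1489 pairs of neighbouring midpoints the median distance was 4.86 kb, with quartiles of 2.44 and 10.4 kb and a range from 0.55 to 63.6 kb. The gap between the peaks was under 1 kb in 326 pairs (21.9%). The median spacing per gene ran from 1.75 kb in GPSM1 to 19.2 kb in RAB11FIP4. The longest stretch without a midpoint took a median of 26.1% of the gene and at most 58%. List 1 peaks covered 13.2% of the bases of the 157 genes and 1.93% of the bases of other genes under the limit, and list 2 peaks covered 0.641% and 0.803%.

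Few of these peaks were at gene ends. Of 1646 pairs of a gene and a list 1 midpoint in it, 60 (3.65%) were within 1000 bp of either annotated end, against 22.6% of 12212 pairs in other genes under the limit. Those other genes were shorter, with a median of 19.9 kb, and in the ones within the length range of the chosen genes, with a median of 43.3 kb, the share was 16.2% of 9240 pairs. The number of ends per gene is fixed, so asking for 8 or more list 1 midpoints lowers this share in the chosen genes. Nothing is read from the contrast in list 1. In list 2 the chosen genes had 8 of 155 pairs at an end (5.16%, 2.25 to 9.92%), and the shares in the same sets of other genes, 6.33% and 4.38%, lie within that interval. At least 1 such list 1 midpoint was found in 55 of the genes (35%), beside 15.7% of all genes under the limit, and 139 of the 157 still had 8 midpoints with the ends left out. Peaks at the ends had a median score of 65.2 and a maximum of 684.2, and those inside had 68.8 and 276.4.

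For genes whose strand was known from the promoter table, each gene was split into 5 equal parts from its 5′ end. This leaves out all 8 chosen genes of chromosome 8. The list 1 midpoints of the chosen genes fell 18%, 17.9%, 18.7%, 20.9% and 24.6% into parts 1 to 5 (n = 1308), so the largest share was in the part at the 3′ end. In other genes part 1 held most, 28.6%, and part 5 held 22.6% (n = 9509). Other genes under the limit had a median length of 19.9 kb, against 88.8 kb in the chosen genes. They also held fewer list 1 midpoints by the rule. Neither was matched here, so nothing is read from this contrast. The list 2 midpoints of the chosen genes were few (n = 126), with 27.8% in part 1 (20.2 to 36.5%) and 23.8% in part 5 (16.7 to 32.2%), and these intervals overlap. In other genes list 2 fell from 22.7% in part 1 to 15.9% in part 5 (n = 7460).

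**Figure D3:**
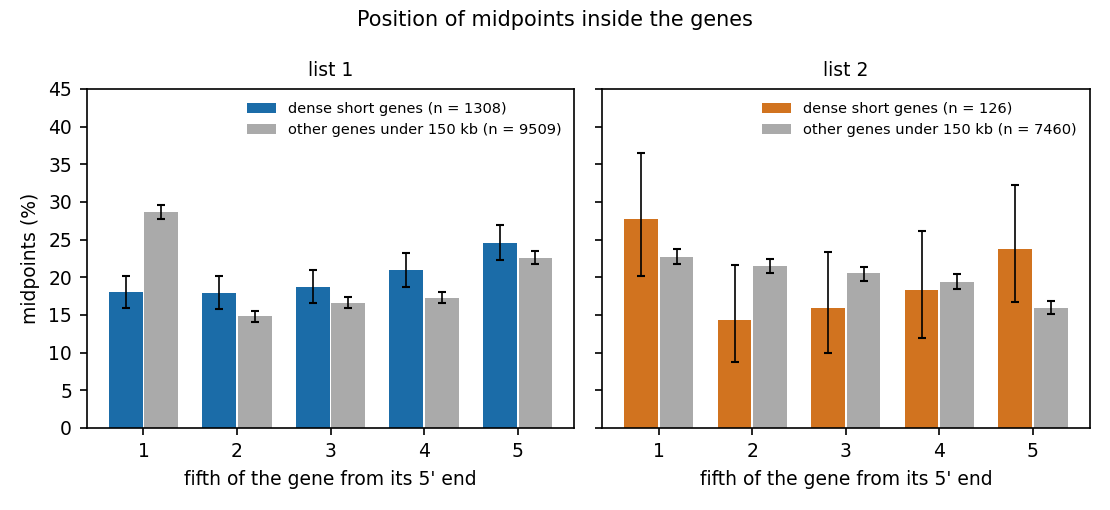
Share of midpoints (y axis, percent) in 5 equal parts of the gene from the 5′ to the 3′ end (x axis) for list 1 and list 2, in the chosen genes and in other genes under 150 kb, with exact 95% binomial intervals that cover counting error only. The list 1 share of the chosen genes is highest in the part at the 3′ end, at 24.6%, while in other genes it is highest at the 5′ end, at 28.6%. The other genes were not matched in length or in number of list 1 midpoints.

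Scores of list 1 peaks in these genes were close to those elsewhere. The median was 68.7, with quartiles of 57.7 and 88.6, and in other genes under the limit it was 65.7, with quartiles of 56.2 and 84.8. Of the best 100 peaks of list 1, 2 had their midpoint in one of the 157 genes, the PEMT peak at rank 4 and the THAP4 peak at rank 80, and of the best 1000 there were 73. The peaks were wider than elsewhere, with a median of 958 bp against 794 bp in list 1 and 545.5 bp against 457 bp in list 2. The median list 2 score was 58.7 in these genes and 60.5 in others.

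The second replicate did not show the same density. A list 2 midpoint was found in 82 of the 157 genes (52.2%, 44.1 to 60.3%), beside 31.0% of all genes under 150 kb and 48.4% of those in the length range of the chosen genes. Counts of 0, 1, 2 and 3 list 2 midpoints were found in 75, 37, 28 and 10 genes, and 7 genes had 4 or more (4.46%), beside 2.60% of all genes under the limit and 4.71% of those in the length range. No gene had more midpoints of list 2 than of list 1. The rule all but fixed this, since it asks for 8 list 1 midpoints. Of all genes under the limit, 0.122% held 8 or more of list 2, so nothing is read from it. Per megabase, the genes held 118.8 list 1 midpoints, beside 24.1 in all genes under the limit. They held 11.1 list 2 midpoints per megabase (9.38 to 13), beside 16.5 in all genes under the limit (16.1 to 16.8), a ratio of 0.672. Genes with 4 to 7 list 1 midpoints had a similar value, 11.9 (10.9 to 13), so a low value was not particular to the chosen genes. By length, the chosen genes held 9.06 (7.05 to 11.5) at 100 to 150 kb, against 15 in all genes of that length. From 50 to 100 kb it was 13.7 (10.8 to 17.2) against 17.3, and under 50 kb it was 15.4 (7.98 to 27) against 16.7.

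Gene length also changed the reading of the share of genes with a list 2 midpoint. Of chosen genes of 100 to 150 kb, 32 of 63 had a list 2 midpoint (50.8%, 37.9 to 63.6%), below the 72.8% of all genes of that length. From 50 to 100 kb it was 41 of 73 (56.2%, 44.1 to 67.8%) against 60.7%, a difference within the counting error. Under 50 kb it was 9 of 21 (42.9%, 21.8 to 66%) against 20.6%. The chosen genes of that class had a median length of 38.2 kb and all genes of the class 13.3 kb, so their lengths were not matched there.

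**Figure D4:**
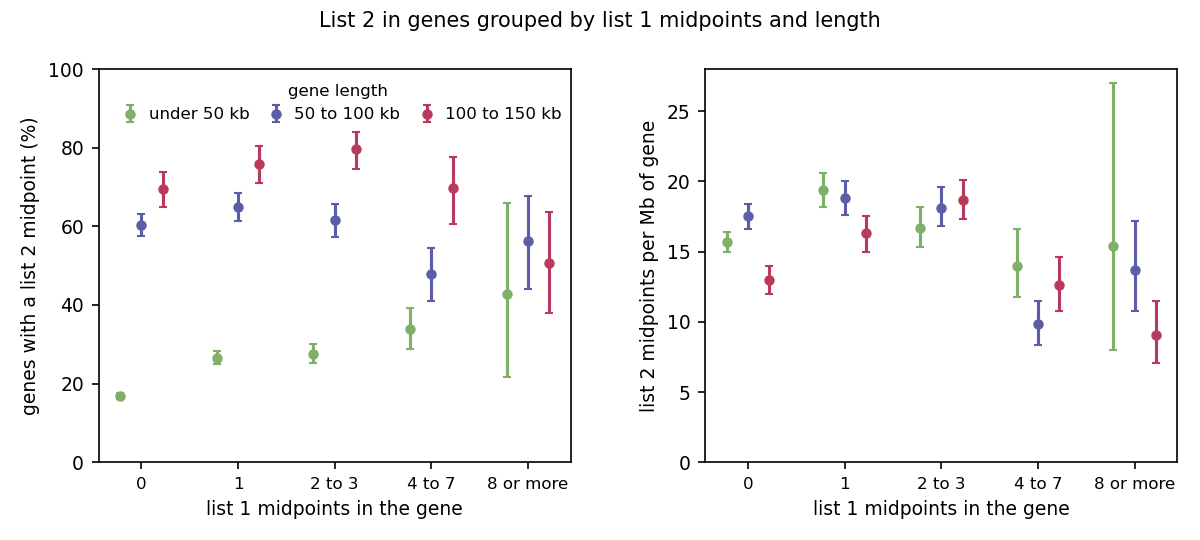
Share of genes with at least 1 list 2 midpoint (y axis, percent) by the number of list 1 midpoints in the gene (x axis), in 3 classes of gene length (left), and list 2 midpoints per megabase of gene in the same classes (right), with exact 95% binomial and Poisson intervals that cover counting error only. In genes of 100 to 150 kb the share is 50.8% at 8 or more list 1 midpoints, the lowest in that class, and 79.7% at 2 to 3. The other classes differ. At 50 to 100 kb the lowest share is 47.8%, at 4 to 7 midpoints, against 56.2% at 8 or more. Under 50 kb the share at 8 or more, 42.9%, is the highest.

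Few list 1 peaks in these genes had a list 2 peak over them. Of 1631 list 1 peaks counted inside them, 30 shared at least 1 bp with a list 2 peak (1.84%, 1.24 to 2.62%), beside 3.78% of all list 1 peaks inside genes under the limit and 4.05% (3.70 to 4.42%) of those in the other genes. Allowing a gap of up to 1 kb the shares were 4.17% and 6.75%. The rule asks for many list 1 peaks, and these are what the share is divided by. Nothing is therefore read from the share of list 1 peaks alone. Read from the other side, 31 of 152 list 2 peaks overlapped list 1 (20.4%, 14.3 to 27.7%), beside 5.48% of all list 2 peaks inside genes under the limit. List 1 covered 13.2% of the bases of the chosen genes, which is an unlike measure. Coverage counts bases, whereas a list 2 peak of some width counts as soon as 1 bp is shared. Coverage is thus too low a yardstick for the 20.4%, and the share expected from placement alone was not computed. At least 1 overlapping list 1 peak was counted in 28 of the genes (17.8%), beside 2.97% of all genes under the limit and 4.02% of those in the length range, in genes that by the rule hold 8 or more list 1 peaks.

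The 30 overlapping peaks mostly had low scores, as did the peaks of these genes at large. Their list 1 scores ran from 53.1 to 684.2 with a median of 61.8, beside 68.7 for all list 1 peaks in the genes. The list 2 peaks they met scored from 50.3 to 103.5 with a median of 58.0, beside 58.7 for all list 2 peaks in the genes. Of the 30, 3 had their midpoint within 1000 bp of an end of the gene (10%, 2.11 to 26.5%), beside 3.65% of all list 1 midpoints in these genes. Ranks of 10000 or better in both lists were found for 2 of them, in SNED1 and PLEC.

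The chosen genes gathered near the ends of chromosomes. Of the 157, 99 (63.1%) were within 5 Mb of the outermost annotated gene of their chromosome, beside 14.1% of all genes under the limit. Within 2 Mb it was 57 (36.3%) beside 8.02%, and the median distance was 2.71 Mb against 27.4 Mb. Chromosome 16 had the most, 21, followed by 17 with 17, 9 with 15 and 19 with 13. By share of its genes chromosome 21 led with 9 of 219 (4.11%), and chromosome 13 had none.

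**Figure D5:**
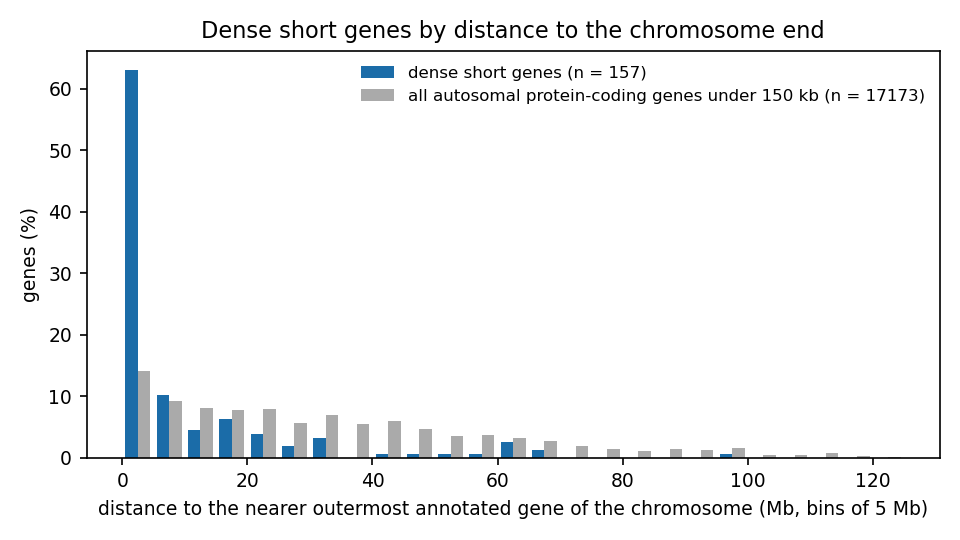
Share of genes (y axis, percent) by distance to the outermost annotated gene of the chromosome (x axis, Mb, in bins of 5 Mb) for the 157 chosen genes and for all 17173 autosomal protein-coding genes under 150 kb. In the bin nearest the chromosome ends lie 63.1% of the chosen genes and 14.1% of all genes.

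Many were neighbours of one another. Joined wherever less than 1 Mb lay between them, the genes formed 78 groups, of which 8 held 5 or more genes and together 58, while 51 genes stood alone. The largest group lay at chr16:87326987-89871319 and held 10, namely FBXO31, JPH3, KLHDC4, ZFPM1, GALNS, CBFA2T3, ACSF3, CDH15, FANCA and SPIRE2. That stretch of 2.54 Mb contained 329 list 1 and 51 list 2 midpoints, 129.3 and 20 per megabase. At chr17:79932343-82604602 the 9 genes included TBC1D16, CCDC40, CEP131, BAHCC1 and CCDC57, with 338 list 1 and 54 list 2 midpoints. Groups of 8 lay at chr16:812688-2340728, with CACNA1H and TSC2, and at chr21:43719129-46445769, with PFKL, TRPM2, COL18A1, COL6A2 and PCNT. A group of 7 lay at chr9:135702185-137423162 and included KCNT1, NOTCH1 and EXD3. Over the gene-bearing span of the autosomes list 1 had 11.1 midpoints per megabase and list 2 had 10.7.

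The surroundings of the genes were dense in list 1 as well. In the 500 kb on each side a median of 56 list 1 midpoints per megabase was counted around the chosen genes and 15 around all genes under the limit, while list 2 had a median of 15 around both. In the flanks of 100 kb, outside the genes, list 1 had 67.3 midpoints per megabase (64.2 to 70.6) and list 2 had 17.5 (15.9 to 19.2). In the gene bodies the values were 118.8 for list 1 and 11.1 for list 2. The bodies were chosen for their list 1 midpoints and the flanks were not, so the rule favours a fall of list 1 from body to flank. No flank values for all genes are given, and nothing is read from the 2 directions. Near chromosome ends the chosen genes held a list 2 midpoint in 61 of 99 (61.6%, 51.3 to 71.2%), and elsewhere in 21 of 58 (36.2%, 24 to 49.9%). Over all genes under the limit the share was 24.1% near chromosome ends and 32.1% elsewhere, in genes with median lengths of 14 and 21.6 kb. In the length range of the chosen genes it was 40.8% near chromosome ends and 49.3% elsewhere, with medians of 38.7 and 44.5 kb. The chosen genes were longer still, with medians of 81.8 kb near the ends and 103.2 kb elsewhere, so length was not matched in this comparison. The part of chromosome position in the list 1 counts was not tested.

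The same rule was also applied to list 2. With 8 or more list 2 midpoints there were 21 genes under the limit, 0.122% of 17173. None was among the 157, which are 0.914% of the same genes, so that sets of these sizes leave little room for a shared gene and nothing is read from the count. SGK3, a kinase related to SGK1, and TRIM37, a ubiquitin ligase, had 14 list 2 midpoints each, with 3 and 1 of list 1, and VMP1, a membrane protein of autophagy, had 11 and 1. List 1 midpoints ran from 0 to 3 in the 21. Of these genes, 1 (RNF24) was within 5 Mb of an outermost gene, and the median distance was 42.7 Mb.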

How the data were processed

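MTA1 ChIP-seq of HCT116 cells was deposited as 2 peak lists, each from 1 of 2 immunoprecipitates over 1 of 2 input libraries. The number that a ChIP and a control share in the list names paired them. The submitters' processing notes name cutadapt, Bowtie2 and GRCh38. Peak names look like those of MACS. Its version, its settings and the scale of the score were not given in the sources used here. The deposited score of each peak is the value the authors' peak calling gave it and was used only to describe, rank and filter peaks within its list. Depth is unknown, and replicate peaks were called separately, so no spread between libraries could be estimated and no test was made.

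Gene ends came from a RefSeq table of GRCh38, without exons, introns or gene sequence. A peak was counted in a gene when its midpoint lay between the gene's ends. A shared stretch of 1 bp or more made 2 peaks overlap. Positions are 1-based. Intervals are exact binomial (Clopper-Pearson) or exact Poisson at 95%. Promoter and microRNA sequences were matched by symbol, with strand from the promoter table. Distances to chromosome ends were taken to the outermost annotated gene.

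Named genes were the 12 with most list 1 midpoints, the 6 with most per 100 kb, the 6 with most list 2 midpoints, the 6 best regions in both lists, the 6 best list 1 peaks, NuRD and colon marker genes, and those nearest the limits of the rule. Other genes were named to illustrate a role, a promoter or a chromosome group, after their values were seen. The genes, lists and roles were chosen with earlier results of these data known. Other limits, minimums and score filters were tried, and counting was tested on simulated data. Python 3.11.15, pandas 2.3.3, numpy 2.4.6, scipy 1.17.1 and matplotlib 3.10.9 were used.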

Additional observations from a re-analysis of the deposited data

How the results depend on the processing

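The 33 alternatives were all planned with the design, and 16 of them left the value within 1.5 times (for the number of genes) or within its 95% interval. The number of genes fell from 157 to 39 with the better-scoring 50% of list 1, to 97 with peaks under 1 kb apart joined, to 74 with a minimum of 10 midpoints and to 94 with a limit of 100 kb. Without MTA1 replicate 1, with the rule on list 2, it was 21, and 0 of the 157 were among them. The share with a list 2 midpoint went from 52.2% to 31.8% with the better-scoring 50% of list 2 (19.2% of all genes), to 71.8% in the genes chosen from the better-scoring 50% of list 1 and to 60.8% with a minimum of 10. List 2 midpoints per megabase went from 11.1 to 4.4 with the better-scoring 50% of list 2 (all genes 8.2) and to 13.9 with a limit of 100 kb (all genes 17.0). The share of list 1 peaks that overlap list 2 went from 1.84% to 0.86% when 50% of both peaks had to be shared (all genes 2.29%), to 4.17% with a gap of up to 1 kb (all genes 6.43%) and to 0.52% with the better-scoring 50% of each list (all genes 2.62%). Median spacing went from 4.86 kb to 7.66 kb with the better-scoring 50% of list 1, to 7.21 kb with near peaks joined and to 4.46 kb with a minimum of 10, and the median list 1 score went from 68.7 to 69.9 with a limit of 100 kb. In each alternative with a value for all genes, list 2 density and the overlap share stayed below it. The cause of these shifts was not tested. No paired analysis was possible because each list is already 1 immunoprecipitate over 1 input, with no values per library. Depth, exons and introns could not be set beside the counts, and 31 of the 157 genes had no promoter entry.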

Other observations

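Outside protein-coding genes, 4 of 37074 autosomal genes of other types under 150 kb held 8 or more list 1 midpoints. SOX1-OT, a long non-coding RNA gene at chr13:111972310-112108015, had 10 list 1 and 3 list 2 midpoints, on the chromosome that had no protein-coding gene of this kind. The pseudogene SSPOP at chr7:149776042-149833965 had 9 and 1. On chromosome 16 the pseudogenes LOC102723999 and LOC647211, 42.8 and 51.2 kb long, had 8 list 1 midpoints each, with 1 and 0 of list 2, and the first overlaps one of the 157 genes.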
